A study of Homo sapiens with 4 samples.

Results

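The subunits of the mitochondrial respiratory chain and of ATP synthase were followed in NUGC3, a human cell line established from a gastric cancer, on 4 single-colour Affymetrix arrays of total RNA. The members were taken by name: every probe set whose platform gene symbol starts with NDUFA, NDUFB, NDUFC, NDUFS, NDUFV, UQCR, COX4, COX5, COX6, COX7, COX8 or ATP5, plus SDHA, SDHB, SDHC, SDHD and CYC1. This gave 174 probe sets with a single symbol, out of 54613 on the table, which stand for 91 of 19775 genes. Another 15 probe sets carry a member's name beside other symbols and were not assigned to a gene. Of the 91 genes, 78 are subunits of complexes I to V, 8 are assembly factors of complex I whose names share the NDUFA prefix, 3 are antisense or divergent transcripts and 2 are pseudogenes. SDHB and UQCRFS1 were not analysed here.

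The control group holds 2 arrays of NUGC3 cells described as wild type for PRMT6. The knockout group holds 2 arrays of NUGC3 cells in which PRMT6 was disrupted with a lentiviral Cas9 vector (lentiCRISPR v2) carrying a guide against the gene, followed by puromycin selection and isolation of clones by limiting dilution. Neither the number of clones behind the knockout arrays nor any vector or selection in the control cells is stated, so the knockout and the history of a clone cannot be told apart. PRMT6 is an enzyme that methylates arginine residues of histones, histone H3 among them, and of other proteins. The arrays of a group are not said to stem from separate cultures; p-values here reflect the spread among these 4 samples alone, and that spread could be technical.

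The respiratory chain sits in the inner mitochondrial membrane. Complex I takes electrons from NADH and complex II from succinate; ubiquinone carries them to complex III and cytochrome c from there to complex IV, which reduces oxygen, and complex V, the ATP synthase, uses the resulting proton gradient. Most subunits are coded in the nucleus and imported, a few are coded by mitochondrial DNA, and complex IV in particular has pairs of subunits in which one form is made in nearly all tissues and the other mainly in muscle, lung or testis.

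The values are RMA log2 expression, and a difference of 1 is a 2-fold change. The medians of all probe sets lay between 4.73 and 4.77 on the 4 arrays, and control replicate 2 had a lower upper quartile (6.62) than the other arrays (6.77 to 6.79). PRMT6 read 7.66 on each control array and 6.87 and 6.91 on the knockout arrays (log2 fold change -0.77, SE 0.073, limma adjusted p = 0.0502). Epithelial markers (EPCAM, KRT8, KRT18, KRT19, CDH1 and CLDN4) had median levels of 12.0 to 12.2 on the arrays. The stomach markers MUC5AC, MUC6, TFF1, TFF2, GKN1 and CLDN18 had medians of 4.66 to 5.03, near the median of all probe sets. As a set, mature gastric markers were therefore not clearly measured, though MUC5AC read higher, at 5.9 to 6.4. Marker lists of fibroblasts, leukocytes and endothelium had medians of 3.49 to 5.09; the fibroblast gene COL1A1 read 7.33 to 7.52.

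In the knockout cells the transcripts of the respiratory chain lay close to their control levels, with a single called change. COX7B2, a testis form of a small complex IV subunit, fell, and it was the only 1 of the 91 genes called by limma at an adjusted p under 0.05; no member was called higher. Over all genes 0.475% were called, 0.116% lower and 0.359% higher, so 1 call among 91 is near the background. Of the calls over all genes 75.5% were higher, and 63.6% after quantile or cyclic loess normalization. Unadjusted p-values lay under 0.05 for 6 members, or 6.59%, against 11.9% of all genes. The middle of the members' distribution was narrow: the log2 fold changes had a median of -0.04 and quartiles of -0.11 and 0.01, against -0.01, -0.12 and 0.09 over all genes.

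The small size of these differences can be bounded. For 83 of the 91 members the 95% interval of the log2 fold change, taken gene by gene from limma, lay inside -0.5 to 0.5. For 89 it lay inside -1 to 1. Over all 19775 genes, 13637 intervals lay inside -0.5 to 0.5 and 19191 inside -1 to 1. The wider bound therefore does not set the members apart from other genes. The difference itself was smaller than 0.1 in 56 members (61.5%), against 47.0% of all genes. Replicates differed by about as much: the median gap between the 2 control arrays was 0.077 over the members and that between the 2 knockout arrays 0.041, while the median absolute log2 fold change was 0.060. The difference exceeded both of a gene's own gaps in 29 members (31.9%), against 30.9% of all genes.

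More members lay below than above their control levels, by small margins. Of the 91, 62 were negative (68.1%), as were 52.6% of all genes, and both knockout values lay below both control values in 32 members and above them in 10, which is 46.2% of the members without overlap. Over all genes 43.3% had no overlap, 21.6% lower and 21.7% higher. The members' total without overlap was thus near that of all genes, but their split by direction was less even. Of the 85 members at or above the median level of all probe sets, 67.1% were negative, and 29 lay apart lower and 9 higher. Of the 12761 genes at or above that level, 46.3% were negative, and 2718 lay apart lower and 3572 higher. The median level of these genes was 7.34, against 10.2 for the 85 members, so the sets were not matched by level. The genes' median was 7.25 on control replicate 2 and 7.35 to 7.38 on the other arrays. The part of that array in the shares was not tested. The members' own median level was 10.16 and 10.19 on control replicates 1 and 2 and 10.12 and 10.21 on knockout replicates 1 and 2. The groups of arrays therefore overlapped in that level, and the spread between the 2 knockout arrays was wider than the difference between the group means. A median of levels follows the genes in its middle, so it cannot show whether many members shifted by a small margin. The mitochondrial ribosomal proteins, another large set of nuclear genes for the organelle, gave like values, with 47 of 77 negative and a median of -0.05.

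Single probe sets were tested too. Of the members' 174 probe sets limma called 1 over all probe sets, where 0.148% of 54613 were called, 0.117% higher and 0.0311% lower. Unadjusted p-values under 0.05 were found for 9 of them (5.17%, background 8.65%). Groups did not overlap in 26 higher and 51 lower probe sets, or 44.3%, against 19.7% higher, 18.9% lower and 38.7% in all over every probe set. In 50 members with more than 1 probe set, none had log2 fold changes more than 1 apart. That limit is wide beside the members' median absolute log2 fold change of 0.060. The widest spans were 0.54 for NDUFS1, 0.53 for NDUFV2-AS1 and 0.44 for ATP5F1E, so probe sets of 1 gene could differ in sign.

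Complex I showed no called change. Of its 33 measured subunits limma called 0, and 1 had an unadjusted p under 0.05 (11.9% of all genes did). The log2 fold changes ran from -0.23 to 0.18 with a median of -0.003, which was 0.0003 after quantile normalization, and 15 were positive and 18 negative. All 33 intervals lay inside -0.5 to 0.5.

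The catalytic core of complex I was measured through 5 genes of their own, all with differences under 0.1. The core subunit NDUFS8 has only probe sets shared with other symbols, which gave 0.10, 0.03 and -0.15, none of them called. NDUFV1 and NDUFV2, which form the NADH-oxidising end of the complex, gave log2 fold changes of 0.08 and 0.001. NDUFS1 and NDUFS7, which carry electrons along the chain of iron-sulphur clusters, gave -0.003 and 0.03. The core subunit NDUFS3 gave 0.01. In all 5 the control and knockout values overlapped. The dimmer probe sets of NDUFS1 did not all follow the brightest: 4 of them gave 0.001, -0.05, 0.21 and 0.49, the last at levels of 4.58 and 4.68 in control and 5.03 and 5.21 in knockout cells (adjusted p = 0.346 over all probe sets).

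Accessory subunits, which surround the core and are needed for assembly and stability, had log2 fold changes of -0.23 to 0.18 over 28 genes. The 5 core genes gave -0.003 to 0.08. A range widens with the number of genes, and the spreads were not compared by a test. NDUFA5 read 8.77 and 8.86 in control and 8.63 and 8.54 in knockout cells (log2 fold change -0.23, SE 0.083, limma adjusted p = 0.408). NDUFB10, a membrane-arm subunit, read 10.21 and 10.17 in control and 9.97 and 10.02 in knockout cells (log2 fold change -0.20, adjusted p = 0.420). Both lay lower on each knockout array without passing the test. The second probe set of NDUFB10 gave -0.02 with overlapping groups, so its lower reading rests on 1 probe set.

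In the other direction, NDUFA7 read 8.88 and 8.86 in control and 9.05 and 9.04 in knockout cells (log2 fold change 0.18, limma adjusted p = 0.449). NDUFS6, another accessory subunit, read 11.30 and 11.19 in control and 11.39 and 11.45 in knockout cells (0.18, adjusted p = 0.5004). Groups did not overlap in 57.1% of the 28 accessory subunits, 10 lower and 6 higher, against 43.3% of all genes. Averaging all probe sets of a gene took NDUFA7 to 0.09.

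The 8 assembly factors that share the NDUFA prefix are not parts of the finished enzyme but build it. Limma called 0 of them, and 0 had an unadjusted p under 0.05. Their log2 fold changes ran from -0.11 to 0.13. NDUFAF5, which modifies a core subunit during assembly, had a value of 0.13 (8.38 and 8.21 in control, 8.39 and 8.47 in knockout cells). NDUFAF3, NDUFAF4 and NDUFAF1 had -0.11, -0.11 and -0.08, and adjusted p-values for these 4 were 0.617 to 0.705. The dimmer probe set of NDUFAF4 gave 0.29, opposite in sign to its brightest.

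Complex II, which is also the succinate dehydrogenase of the citric acid cycle, was measured through 3 genes and had 0 called by limma and 0 at an unadjusted p under 0.05. SDHA, the flavoprotein that oxidises succinate, read 10.61 and 10.45 in control and 10.35 and 10.37 in knockout cells (log2 fold change -0.17, SE 0.089, adjusted p = 0.541). SDHC and SDHD, the membrane anchors, gave 0.004 and -0.006, with adjusted p-values of 0.992 and 0.986. On these brightest probe sets SDHA was lower on both knockout arrays, and the values of its anchors overlapped. An SDHC probe set of like level (9.89 and 9.88 against 9.77 and 9.83) gave -0.09, lower on both knockout arrays. A dimmer one gave -0.13, also lower on both, and the remaining ones of SDHC overlapped. The dim second probe set of SDHD gave 0.20, higher on both. A probe set that SDHA shares with other symbols gave -0.05 with overlapping groups. Without control replicate 1 the value of SDHA was -0.09 and without control replicate 2 it was -0.25.

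Complex III had 0 of 7 genes called by limma and 0 at an unadjusted p under 0.05, with a median of -0.05. UQCRC2, a core protein without a redox centre, read 10.11 and 10.19 in control and 10.01 and 9.96 in knockout cells (log2 fold change -0.16, SE 0.078, adjusted p = 0.507). Its next probe set gave -0.12 and its dimmest, near the bottom of the scale, 0.25; their average was -0.01. UQCRB, which takes part in ubiquinone binding, gave -0.12 (adjusted p = 0.661), but -0.05 without control replicate 2, -0.18 without control replicate 1 and 0.01 with its probe sets averaged. The values of CYC1, the cytochrome c1 that hands electrons to cytochrome c, overlapped between the groups (11.06 and 10.90 against 10.90 and 10.97), as did those of UQCRC1, UQCRQ, UQCR10 and UQCR11, whose log2 fold changes lay between -0.05 and 0.01.

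Complex IV held the largest differences. Of 17 measured genes limma called 1, COX7B2, and 2 had an unadjusted p under 0.05. COX7B2 read 4.68 and 4.91 on the control arrays and 3.02 and 2.89 on the knockout arrays. The groups were far apart compared with their gaps. The mean fell from 4.80 ± 0.16 to 2.96 ± 0.094 (SD over 2 arrays), or 3.58-fold. Its log2 fold change was -1.84 (SE 0.11, 95% interval -2.14 to -1.54, limma adjusted p = 0.0223). It has a single probe set, which also passed when all probe sets were tested (limma adjusted p = 0.0395). The call was lost with the replicate number as a block (adjusted p = 0.139) and whenever an array was left out (adjusted p 0.141 to 0.612), while the log2 fold change stayed between -1.95 and -1.72. The control level was close to the median of all probe sets (4.75) and both knockout values lay under the lower quartile of their arrays (3.22 and 3.21), so the transcript was not shown to be above background in knockout cells and the size of the fold is uncertain.

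COX7B, the form of the same subunit made in most tissues, read 11.64 and 11.78 in control and 11.62 and 11.61 in knockout cells. Its knockout values lay just below the lower control value, with a log2 fold change of -0.10 (SE 0.084, 95% interval -0.32 to 0.12, limma adjusted p = 0.686). The interval of COX7B2 lies wholly below that of COX7B; the difference between these genes was not tested.

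The stretches of 250 bases upstream of the annotated starts of COX7B2 and COX7B are shown because these isoforms of one subunit had the most unlike log2 fold changes. They are from RefSeq on GRCh38.p14, at chr4:46909246-46909495 on the minus strand and chrX:77899218-77899467 on the plus strand, written 5′ to 3′, with each CG dinucleotide in capitals.
COX7B2: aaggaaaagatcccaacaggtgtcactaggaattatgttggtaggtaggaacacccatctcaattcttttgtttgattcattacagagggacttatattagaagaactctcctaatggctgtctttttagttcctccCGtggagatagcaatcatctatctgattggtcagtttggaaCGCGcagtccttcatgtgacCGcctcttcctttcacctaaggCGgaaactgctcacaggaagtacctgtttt
COX7B: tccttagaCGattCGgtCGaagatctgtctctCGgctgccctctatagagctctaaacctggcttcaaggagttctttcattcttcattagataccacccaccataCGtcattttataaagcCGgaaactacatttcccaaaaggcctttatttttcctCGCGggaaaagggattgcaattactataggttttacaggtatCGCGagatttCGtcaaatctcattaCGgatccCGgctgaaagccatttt
COX7B2 held 5 CG dinucleotides in these 250 bases and COX7B 13, at the same GC content of 43.2%. In the full windows of 300 bases (250 before to 50 after the start) the counts were 8 and 14, against a median of 23 over the 62 common subunits with a sequence and 22 over 15382 promoters of genes on the arrays.

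The other tissue isoforms of complex IV were not called. COX6B2, also a testis form, read 4.92 and 5.67 in control and 4.79 and 4.99 in knockout cells, so its groups overlapped (log2 fold change -0.41, SE 0.27, limma adjusted p = 0.610). COX8C, a further testis form, read 2.34 and 2.08 against 2.12 and 1.89 (-0.21, adjusted p = 0.609). The muscle forms COX6A2 and COX7A1 gave -0.26 and -0.17, and COX4I2, the form known from lung, gave -0.06 (adjusted p = 0.653, 0.690 and 0.858). These 5 overlapped between the groups, and their levels of 1.89 to 5.67 were low on the scale of the arrays. Their values depended on single arrays. Without control replicate 2, COX6B2, COX7A1 and COX6A2 were -0.03, -0.01 and 0.01, and without control replicate 1 they were -0.78, -0.32 and -0.53. COX8C ranged from -0.34 to -0.08 when an array was left out, and COX4I2 from -0.17 to 0.05.

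Their common counterparts differed little. COX4I1, COX6A1, COX6B1, COX7A2 and COX8A gave log2 fold changes of -0.10, -0.003, 0.01, 0.02 and -0.10, each with a 95% interval inside -0.5 to 0.5 (adjusted p 0.625 to 0.993). On these brightest probe sets COX4I1 and COX8A lay lower on both knockout arrays by that small margin, and the other 3 overlapped. The dimmer probe sets of COX4I1 gave -0.07, 0.15 and 0.10, the positive values at levels of 4.75 to 5.96. A dim second probe set of COX6A1 gave -0.26, with both knockout values lower. COXFA4, formerly NDUFA4, a complex IV subunit that the prefixes do not take, gave -0.10 (SE 0.073, adjusted p = 0.643), and its isoform COXFA4L2, known as induced in hypoxia, gave -0.19 (adjusted p = 0.539).

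Markers of the tissues that make these isoforms were low in both groups. The 8 germ cell markers of the testis had median levels of 3.82 and 4.04 on the control and 3.72 and 3.60 on the knockout arrays; limma called 0 of 8, and 2 had an unadjusted p under 0.05. PRM2 and TEX101, made in the testis, differed by -0.40 and -0.45 on the log2 scale (limma adjusted p = 0.261 and 0.301), and DDX4 and DAZL, which define germ cells, lay between 2.02 and 2.53 on all arrays. The 6 markers of striated muscle had medians of 3.96 to 4.15, 0 called by limma and 1 at an unadjusted p under 0.05. The part of other cell types in the result for COX7B2 was not tested. In bulk RNA, fewer cells making a transcript and less of it per cell cannot be told apart.

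COX5B, a matrix-side subunit of complex IV present in nearly all tissues, was the next largest difference. Its brightest probe set read 11.15 and 11.07 in control and 10.58 and 10.62 in knockout cells (log2 fold change -0.51, SE 0.078, 95% interval -0.71 to -0.30), which did not pass over all genes (limma adjusted p = 0.116). It passed when only genes at or above the median level were tested (adjusted p = 0.0471) and with a mean-variance trend and robust settings (adjusted p = 7.45e-04), where 309 and 835 genes were called in all, against 94.

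All probe sets of COX5B pointed the same way. The other 3 gave log2 fold changes of -0.60, -0.62 and -0.59. The dimmest of them read 7.07 and 7.16 in control and 6.51 and 6.54 in knockout cells. On each of the 4, both knockout values lay below both control values, as they did for 18.9% of all probe sets, and 0 of the 4 passed over all probe sets (adjusted p 0.204 to 0.255). These probe sets read the same gene and are not independent.

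Complex V had 0 of 18 genes called by limma, 1 with an unadjusted p under 0.05, and 17 negative values with a median of -0.05. With quantile or cyclic loess normalization the median became -0.04. ATP5F1D, the delta subunit of the central stalk, read 9.85 and 9.79 in control and 9.55 and 9.60 in knockout cells (log2 fold change -0.25, SE 0.076, adjusted p = 0.331). Its second probe set gave -0.01 with overlapping groups, so the lower reading rests on 1 probe set. With the trend and robust settings ATP5F1D was called (adjusted p = 0.0353).

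The other parts of the synthase differed little. ATP5F1A and ATP5F1B, the subunits that form the catalytic sites, gave -0.05 and -0.07. ATP5MC1, ATP5MC2 and ATP5MC3, which all code for the c subunit of the rotating ring, gave -0.17, -0.01 and -0.01, of which only ATP5MC1 had groups apart (9.39 and 9.36 against 9.15 and 9.27, adjusted p = 0.512). In the peripheral stalk, which holds the catalytic head still, ATP5PB gave -0.12, with values of 11.87 and 11.89 in control and 11.76 on each knockout array (adjusted p = 0.590). ATP5IF1, the inhibitor of the enzyme, gave -0.05 and -0.06 on 2 probe sets and -0.29 on the third (7.53 and 7.43 against 7.22 and 7.16, adjusted p = 0.503 over all probe sets). ATP5MF gave -0.16 on a dim probe set of its own (4.50 to 4.80 over the arrays). A bright probe set that it shares with another symbol gave -0.14 and was not called. It read 10.74 and 10.80 in control and 10.59 and 10.68 in knockout cells.

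The non-coding and pseudogene transcripts that carry member names were dim and were not called (limma, 0 of 5, with 2 at an unadjusted p under 0.05). The antisense transcript NDUFV2-AS1 had a value of 0.26 on its brightest probe set and -0.28 on the other, and the pseudogene COX6A1P1 -0.29 (adjusted p = 0.375 and 0.414). A pseudogene can share probes with its parent, and how reads of the parent enter it was not tested. Among the 15 probe sets with several symbols, 0 were called over all probe sets, 1 had an unadjusted p under 0.05, and the log2 fold changes ran from -0.39 to 0.10.

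On chromosome 2 lie 7 of the members, and their median log2 fold change was -0.003, against -0.04 over the 84 members of other chromosomes and -0.06 over the 826 genes of chromosome 2 at or above the median level. COX5B was the only 1 of the 7 with a value under -0.15. Because neighbouring genes of part of this chromosome are known from the same data to be lower together, each member was set beside the 50 nearest genes above the median level, 25 on each side in the order of the RefSeq gene table.

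Around COX5B, from LSP1P4 to IL1RL1, the median of the 50 neighbours was -0.35, 45 were negative and 41 had both knockout values below both control values (21.6% of all genes did). COX5B was the 11th lowest among its neighbours. Around the other members the medians lay near 0: 0.01 for NDUFAF7, 0.07 for COX7A2L, 0.02 for ATP5MC3, -0.0004 for NDUFB3, 0.01 for NDUFS1 and 0.08 for NDUFA10, with 6 to 9 neighbours of each lower in both knockout arrays. Windows of members that lie close together share genes.

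The other 6 members were not called. NDUFB3, a membrane-arm subunit of complex I, read 9.67 and 9.72 in control and 9.55 on each knockout array (log2 fold change -0.15, SE 0.073, limma adjusted p = 0.512). NDUFA10 gave 0.13 with both knockout values higher (9.94 and 9.84 against 9.95 and 10.08, adjusted p = 0.638), and 0.02 with its probe sets averaged. NDUFAF7, COX7A2L, ATP5MC3 and NDUFS1 gave 0.01, 0.002, -0.01 and -0.003 with overlapping groups; COX7A2L helps complex III and complex IV to join into supercomplexes. The signs of these 4 changed between alternatives, and their values stayed between -0.06 and 0.13.

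Nuclear genes for other mitochondrial proteins lie along the same chromosome. In all 18 of the listed mitochondrial genes lie there, a comparison set up after their values were seen. COX5B and the 3 of them among its neighbours had log2 fold changes of -0.35 to -0.62: the ribosomal proteins MRPS5 and MRPL30 gave -0.47 and -0.62, and COA5, an assembly factor of complex IV, gave -0.35 (adjusted p = 0.122, 0.0897 and 0.249). MRPS9, the next of them in order beyond that window, gave -0.46 (adjusted p = 0.134). On the other side of the window, MRPL35 and MRPL19 gave -0.16 and -0.25 (adjusted p = 0.550 and 0.458). Both knockout values lay below both control values in COX5B and all 3 within the window and in 5 of the 14 listed genes outside it, against 21.6% of all genes. The median of those 14 was -0.0005. The neighbours of COX7B2, which lies on chromosome 4, did not share its fall: their median was 0.002 with 25 of 50 negative, COX7B2 was the lowest of them, and the genes on either side of it, GABRA2 and GABRA4, gave 0.17 and -0.06 at levels of 2.70 to 3.76.

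The upstream stretch of COX5B is shown because the gene lay low in all its probe sets, beside that of SDHD, whose level was nearly the same in both groups. ETS-family factors such as GABP, and NRF1, are known regulators of nuclear respiratory genes. The sequences are 250 bases from RefSeq on GRCh38.p14, at chr2:97645812-97646061 and chr11:112086623-112086872, both on the plus strand, 5′ to 3′. Capitals mark matches to the ETS letters CCGGAAGT or to the palindromic NRF1 site on either strand.
COX5B: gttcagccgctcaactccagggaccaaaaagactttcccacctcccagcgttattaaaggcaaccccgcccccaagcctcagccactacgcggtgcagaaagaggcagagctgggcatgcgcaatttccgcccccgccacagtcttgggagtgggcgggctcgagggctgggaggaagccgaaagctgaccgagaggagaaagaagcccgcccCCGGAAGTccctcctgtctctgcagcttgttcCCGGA
SDHD: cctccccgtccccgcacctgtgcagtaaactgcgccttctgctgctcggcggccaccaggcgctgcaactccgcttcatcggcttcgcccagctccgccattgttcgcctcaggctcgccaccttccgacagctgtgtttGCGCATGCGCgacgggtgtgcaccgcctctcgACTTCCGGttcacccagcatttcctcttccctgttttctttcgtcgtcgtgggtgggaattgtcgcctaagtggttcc
COX5B held 2 ETS matches, the second running past the printed end, and SDHD held 1 ETS and 1 NRF1 match.

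Over the windows of 300 bases, the ETS letters were found for 9 of 62 common subunits (14.5%), the NRF1 letters for 4 (6.45%) and the YY1 letters AAGATGGC for 10 (16.1%). Of 15382 promoters of genes on the arrays, 6.25%, 1.79% and 4% held them. None of the 3 motifs was found for the 4 tissue isoforms with a sequence, COX7B2 among them. Each motif was searched on both strands, matches of different motifs were counted separately also where they overlap, and a match is a description of the sequence. SDHD, with matches to ETS and NRF1 letters, had a log2 fold change of -0.006, and COX5B, with ETS letters, -0.51.

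The factors named above were themselves little different. Of 19 regulators of mitochondrial gene expression limma called 0, and 0 had an unadjusted p under 0.05; all 19 had 95% intervals inside -0.5 to 0.5. LRPPRC, which stabilises mitochondrial messenger RNA, TFAM, which packages and transcribes mitochondrial DNA, and NRF1 gave 0.13 each (adjusted p = 0.545, 0.604 and 0.613). GABPA and YY1 gave 0.08 and -0.06, and PPARGC1A, a coactivator of mitochondrial biogenesis, lay at 3.17 to 3.35 on all arrays, a low level.

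The remaining parts of the pathway also held no call by limma. Among 44 assembly factors outside the prefixes, 0 were called and 3 had an unadjusted p under 0.05, with a median of -0.006; after COA5, UQCC2 and COA7, which serve complexes III and IV, gave 0.24 and 0.22 (adjusted p = 0.376 and 0.390). Among 17 genes of electron carriers and ubiquinone synthesis, 0 were called and 0 had an unadjusted p under 0.05; ETFA, COQ6 and COQ10B gave -0.18, 0.24 and 0.12 (adjusted p = 0.474, 0.510 and 0.573).

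Of the subunits coded by mitochondrial DNA, 7 were measured, 0 were called and 0 had an unadjusted p under 0.05. ND2, ND4, COX1, COX2 and ATP6 gave log2 fold changes of -0.06, 0.04, 0.02, 0.05 and -0.08, and ND6 and COX3 gave -0.12 and -0.19. All but ND6 and COX3 read 12.88 to 13.70, near the highest values of the arrays (13.96 to 14). Whether saturation limits the differences of such bright genes was not tested. COX3 read 7.12 and 7.80 on the control arrays, so its controls alone differed by more than the groups did.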

How the data were processed

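RNA was amplified with a 3′ IVT kit and hybridised to 1 array per sample, per the labels. The authors deposited 1 log2 value for each probe set; the submitters' processing notes name RMA and affy, with no version or setting. RMA as usually run equalises the distributions of the probe intensities before they are summarised to probe sets. The quartiles of the deposited values differed, which alone does not show whether that step was run. Which steps were run is therefore unknown. RMA also compresses folds of dim probe sets. Symbols came from the platform annotation: 41091 probe sets had 1 symbol, 1801 several and 11721 none. All 91 members matched the RefSeq gene table of GRCh38.p14, used for names, chromosome and gene order, and 66 of 78 subunits had a promoter sequence.

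Each gene was represented by its probe set with the highest mean. Knockout and control were compared with limma 3.58.1 in R 4.3.3 (lmFit, eBayes, group as the only term, two-sided, Benjamini-Hochberg over all 19775 genes, or over all 54613 probe sets), with calls at an adjusted p under 0.05. With 2 arrays against 2, an exact permutation test cannot give a p under 0.333, so calls rest on limma's pooling of the spread (prior degrees of freedom 2.48). The fit was tested on simulated arrays. Number of arrays limits the precision. Named were members called in either fit, up to 4 of smallest p per complex, all members of chromosome 2, the tissue isoforms with their counterparts, up to 3 of smallest p per pathway list, and members with probe sets over 1 apart, of which there were 0; further members are named to give each part of a complex and were picked with their values known. The members and lists were chosen with earlier results of these data known. Alternatives were other scalings, each array left out, averaged probe sets, a filter on dim genes, another variance model and a replicate block.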

Additional observations from a re-analysis of the deposited data

How the results depend on the processing

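With 2 arrays a group, the number of arrays limits every call. COX7B2 stayed lower under all 9 alternatives that kept it, at -1.95 to -1.72, but was called in 4 of them; the filter on dim genes removed it. Leaving out any array gave 0 called members, 0 called member probe sets, 0 called genes and 0 called probe sets, where the main values were 1, 1, 94 and 81; COX7B2 then lay between -1.95 and -1.72 and COX5B between -0.55 and -0.46. The arrays share only a replicate number (correlation of same-numbered deviations -0.0665); with the replicate block, COX7B2 stayed at -1.84 (adjusted p = 0.139), and 0 members, 0 member probe sets, 0 genes and 0 probe sets were called. Both kinds of alternative leave fewer residual degrees of freedom. Sign changes under an alternative were met only among uncalled results.

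With the trend and robust settings 3 members (COX7B2, COX5B and ATP5F1D), 5 member probe sets, 835 genes and 883 probe sets were called, and COX5B at -0.51 passed. Above the median level 309 genes and 167 probe sets were called, among them 1 member gene, COX5B at -0.51, and 0 member probe sets. Quantile normalization called 195 genes (124 higher) and cyclic loess 231 (147 higher) and 123 probe sets, against 71 higher of 94. The members' median stayed between -0.05 and -0.03 under all 10 alternatives; that of the chromosome 2 members was -0.045 without control replicate 1 and 0.025 without control replicate 2, and the cause was not tested.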
